A study of Mus musculus with 9 samples.

Results

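The RNAs described here are 9 named genes of the mouse annotation, which together have 10 of the 55487 gene identifiers in the deposited tables, since Rmrp has 2. They fall into 3 kinds. Rn7s1, Rn7s2, Rn7sk, Rmrp and Rpph1 are small structured RNAs made without a poly(A) tail, CT010467.1 and Lars2 are rows chosen as matching ribosomal RNA sequence, and Malat1 and Neat1 are long noncoding RNAs kept in the nucleus. They were chosen by name and by their shares of expected counts and TPM in these same libraries. Their values are therefore given as a description, with no test.

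All 9 libraries were of polyadenylated RNA, and the naive CD4+ T cells came from the lymph nodes of C57BL6/J mice of wild-type genotype. The cells were cultured for 20 h with interleukin-1b at 10 ng/mL (IL-1b-treated, 3 libraries), cultured for 20 h without it (cultured, 3 libraries) or used freshly prepared (fresh, 3 libraries). IL-1b is an inflammatory cytokine, and the labels set treated against untreated naive T cells. The sources used here do not say whether the replicates were separate animals or cultures, so the p-values below may measure only a technical spread.

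Most messenger RNAs end in a poly(A) tail, and preparations of polyadenylated RNA capture them by it. RNA polymerase III instead makes short RNAs that end in a few U and fold into compact shapes. 7SL RNA (Rn7s1 and Rn7s2) is the scaffold of the signal recognition particle (SRP), which brings ribosomes making secreted and membrane proteins to the endoplasmic reticulum. 7SK RNA (Rn7sk) holds the elongation kinase P-TEFb inactive, and Rpph1 and Rmrp are the RNA parts of ribonucleases P and MRP, which process transfer RNA and ribosomal RNA precursors. Malat1 collects in nuclear speckles, next to stores of splicing factors, and the long form of Neat1 is the frame of paraspeckles. The ends of Malat1 and of the long Neat1 RNA are cut by RNase P and protected by a triple helix of U-rich and A-rich stretches in place of a tail.

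The sequences are shown for the runs of A that each RNA holds without a tail. They are those of GENCODE M21 on GRCm38, the assembly also called mm10. In the small RNAs the capitals mark the longest runs of A. Rn7s1 and Rn7s2, on chromosome 12, differ from each other at 0 of 300 bases. Rn7sk (chr9:78175303-78175602), Rmrp (chr4:43492788-43493058) and Rpph1 (chr14:50807449-50807748) lie on the minus strand, and the last 300 bases are shown of Rn7sk (331 bases) and Rpph1 (319 bases).
Rn7sk: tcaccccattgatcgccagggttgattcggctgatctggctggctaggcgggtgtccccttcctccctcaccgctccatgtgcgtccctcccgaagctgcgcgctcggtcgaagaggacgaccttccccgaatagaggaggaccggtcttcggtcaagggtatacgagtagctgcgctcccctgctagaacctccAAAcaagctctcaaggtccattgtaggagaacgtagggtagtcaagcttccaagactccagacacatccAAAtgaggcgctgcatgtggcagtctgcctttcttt
Rmrp: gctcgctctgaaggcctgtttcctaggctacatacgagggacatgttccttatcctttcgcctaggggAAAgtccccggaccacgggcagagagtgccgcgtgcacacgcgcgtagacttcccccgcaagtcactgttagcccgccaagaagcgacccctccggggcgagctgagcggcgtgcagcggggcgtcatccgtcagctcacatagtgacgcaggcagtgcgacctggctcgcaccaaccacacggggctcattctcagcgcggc
Rpph1: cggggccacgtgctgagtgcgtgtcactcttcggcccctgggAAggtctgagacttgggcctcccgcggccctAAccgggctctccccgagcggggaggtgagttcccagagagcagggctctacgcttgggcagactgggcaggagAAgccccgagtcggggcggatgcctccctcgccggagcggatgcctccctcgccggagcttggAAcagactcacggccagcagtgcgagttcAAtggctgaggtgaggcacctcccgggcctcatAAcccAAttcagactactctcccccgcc
The longest run in the whole RNA was 4 A in 7SL, 3 A in Rn7sk and in Rmrp, and 2 A in Rpph1.

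Malat1 and Neat1 lie near each other on chromosome 19 and both run on the minus strand. Malat1 is shown around its longest run of A (chr19:5795968-5796089) and Neat1 at the end of its long transcript (chr19:5824708-5824827). Here the capitals mark stretches of at least 10 bases that both ends hold in the same order.
Malat1: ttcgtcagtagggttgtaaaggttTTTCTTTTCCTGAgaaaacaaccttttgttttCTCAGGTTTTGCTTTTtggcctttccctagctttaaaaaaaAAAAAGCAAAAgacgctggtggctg
Neat1: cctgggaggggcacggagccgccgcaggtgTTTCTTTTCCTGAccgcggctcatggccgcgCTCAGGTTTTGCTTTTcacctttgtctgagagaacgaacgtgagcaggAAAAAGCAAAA
The ends shared 3 such stretches, of 13, 16 and 11 bases, the first 2 rich in T and the last rich in A. The Malat1 run of 12 A spans bases 6674 to 6685 of a 6983-base transcript, and the annotated transcript goes on for 298 bases after it. Malat1 thus holds an encoded A run longer than that of any small RNA above.

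The libraries held 13518814 to 23056686 expected counts, at which 3 counts correspond to 0.130 to 0.222 counts per 1000000 (CPM). The lowest of the 10 naive CD4+ T cell markers averaged 179 TPM in IL-1b-treated, 231 TPM in cultured and 312 TPM in fresh cells, so the labelled cell type had all its markers in each group. The 13 markers of other cell types summed to 43.2 to 44.3 TPM, 44.6 to 56.7 TPM and 75.9 to 111 TPM in the same order of groups. Of these 13, the NK cell gene Ncr1 was at 0 in the IL-1b-treated group and the neutrophil gene S100a8 in the cultured group. Cd8b1, of CD8 T cells, was the highest of the 13 in both cultured groups, at 28.8 to 31.0 TPM in IL-1b-treated and 28.6 to 35.7 TPM in cultured libraries, against 17.1 to 18.5 TPM in fresh libraries. B cell and myeloid markers were higher in fresh cells than in either cultured group, for instance the myeloid gene Lyz2 at 0.06 to 0.14 TPM in IL-1b-treated, 0 to 0.30 TPM in cultured and 10.9 to 14.6 TPM in fresh libraries. The part of other cells in the values below was not tested.

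7SL, the SRP scaffold, had the most counts of the small RNAs. The sources used here do not say how polyadenylated RNA was selected or whether the groups' libraries were prepared together. Counts of the small RNAs, and of CT010467.1 below, may depend on that preparation, and its part was not tested. The values are therefore levels in the libraries, which need not be those in the cells. The rows of Rn7s1 and Rn7s2 were summed, because RSEM cannot tell identical rows apart: it gave them equal counts in 8 libraries and 26.5 against 1623 in cultured replicate 2. The sum was 237, 195 and 194 expected counts in IL-1b-treated libraries, 1474, 1649 and 1852 in cultured libraries, and 484, 222 and 198 in fresh libraries. Scaled by TMM, it averaged 13.8 ± 0.650 CPM (SD, n = 3) in IL-1b-treated, 104 ± 9.85 CPM in cultured and 15.7 ± 3.74 CPM in fresh cells. The cultured libraries stood apart from both other groups, which overlapped on the CPM scale, and fresh replicate 1 was the highest fresh library at 20.0 CPM. In TPM the IL-1b-treated and fresh groups did not overlap, at 156 to 174 against 280 to 388. A total from bulk RNA cannot tell fewer cells of a type from less RNA per cell.

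Rn7sk, the inhibitor of P-TEFb, followed the same pattern at lower counts. It had 100, 95 and 48 counts in IL-1b-treated libraries, 337, 328 and 333 in cultured libraries, and 129, 99 and 56 in fresh libraries. The means were 5.35 ± 1.89 CPM in IL-1b-treated, 21.001 ± 0.862 CPM in cultured and 5.05 ± 1.00 CPM in fresh cells (SD, n = 3 each). On the CPM scale IL-1b-treated and fresh libraries overlapped, and each group had 1 low library, replicate 3. In TPM these groups did not overlap, at 29.1 to 60.9 against 63.0 to 91.0. Part of its sequence is repeated elsewhere: 68.1% of its 50-base words also occur in 7 other deposited genes, all of which had 0 counts in every library.

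The RNase RNAs had the fewest counts. Rpph1, the RNA of RNase P, had 17, 16 and 22 counts in IL-1b-treated libraries, 137, 120 and 188 in cultured libraries, and 51, 8 and 18 in fresh libraries. Rmrp, the RNA of RNase MRP, had 8, 2 and 8 counts in IL-1b-treated libraries, 79, 84 and 44 in cultured libraries, and 16, 4 and 12 in fresh libraries, its 2 rows summed because 1 contains the other. Every cultured library was above every other library for both RNAs. The IL-1b-treated and fresh groups overlapped for both. On the CPM scale Rpph1 averaged 1.22 ± 0.234 in IL-1b-treated cells, 9.35 ± 2.17 in cultured cells and 1.28 ± 0.817 in fresh cells. Rmrp averaged 0.387 ± 0.213 CPM, 4.36 ± 1.41 CPM and 0.581 ± 0.311 CPM in the same groups. Rmrp overlaps the protein-coding gene Ccdc107 on the opposite strand, and the strand setting of the counting is not given in the sources used here. Ccdc107 had 234 to 334 counts in IL-1b-treated, 278 to 332 in cultured and 196 to 371 in fresh libraries. Its part in the Rmrp counts was not tested. Rpph1 overlaps Ccnb1ip1, which had 0 counts in all 9 libraries.

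**Figure D1:**
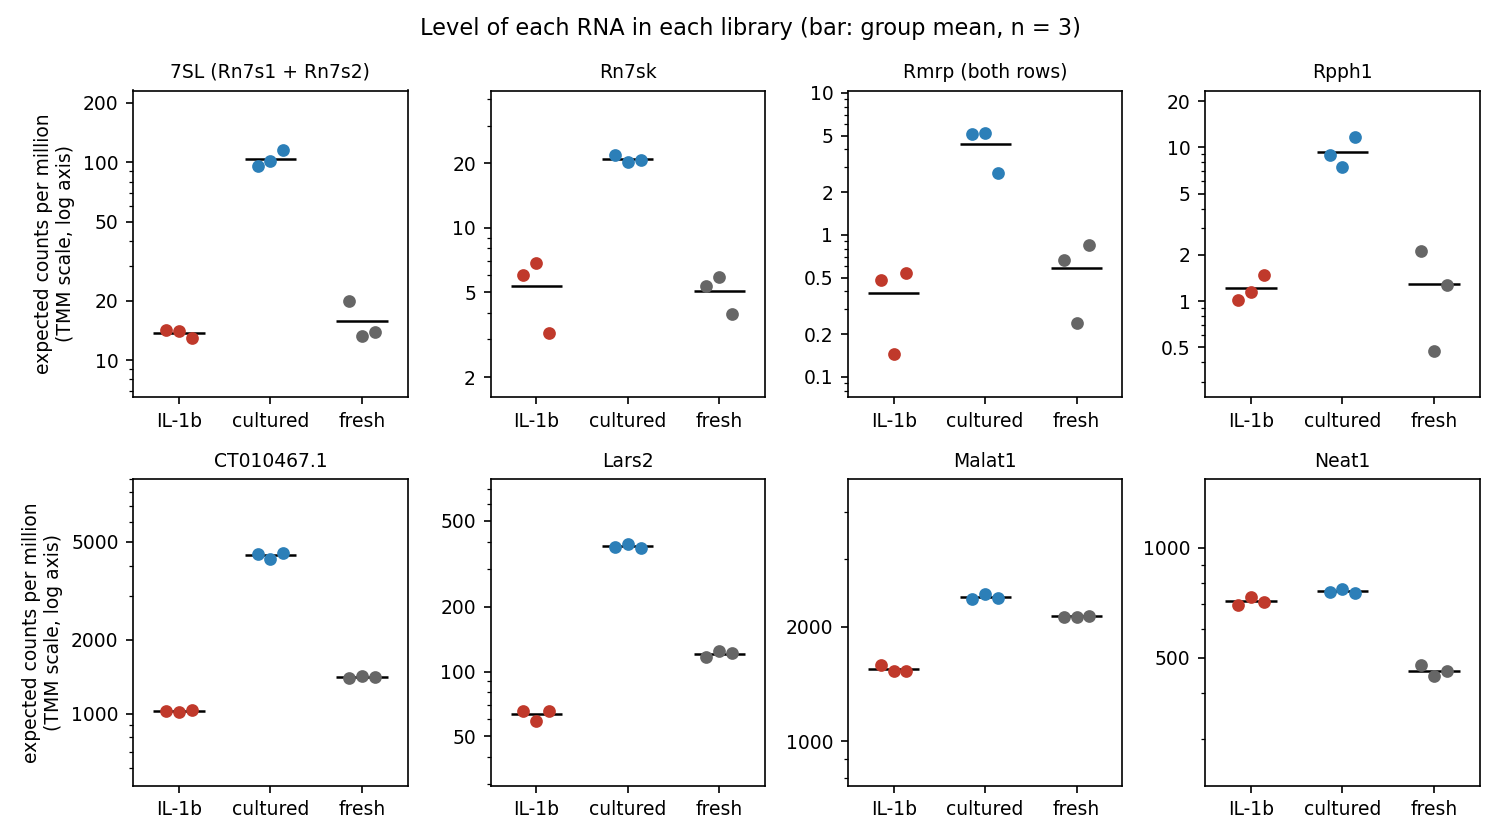
Expected counts as CPM on the TMM scale (log axis, a separate range in each panel) for each RNA in each library, with points for the 3 libraries of IL-1b-treated, cultured and fresh cells and a bar for the group mean. The cultured libraries are highest for the 4 small RNAs, CT010467.1 and Lars2, Malat1 has a narrower range, and Neat1 has its lowest values in fresh libraries.

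CT010467.1, annotated as ribosomal RNA, had by far the most counts of the 9 genes in cultured cells. It had 17043, 14187 and 15440 expected counts in IL-1b-treated libraries, 68681, 68783 and 72299 in cultured libraries, and 33843, 23882 and 20022 in fresh libraries. These were 0.0954 to 0.0970%, 0.431 to 0.456% and 0.147 to 0.150% of all counts in the same order of groups. It ranked 6th by count among all genes in each cultured library, 133rd to 141st in IL-1b-treated and 56th to 58th in fresh libraries. The groups did not overlap, and here IL-1b-treated cells were below fresh cells, at 1026 ± 8.81 CPM against 1409 ± 9.53 CPM, with 4412 ± 134 CPM in cultured cells. The deposited transcript, on the minus strand of chromosome 17, is 1849 bases long, the length of the RefSeq 18S-related record Rn18s-rs5 on GRCm38.p6, and 1244 bases of it are the exact reverse complement of the lncRNA Gm42418, for which no row was analysed here. Which strand these reads came from was not tested.

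Lars2, the mitochondrial leucyl-tRNA synthetase, followed CT010467.1. It had 1092, 824 and 982 counts in IL-1b-treated libraries, 5781, 6301 and 5991 in cultured libraries, and 2809, 2103 and 1724 in fresh libraries. The means were 63.6 CPM in IL-1b-treated, 380 CPM in cultured and 121 CPM in fresh cells, with SDs of 3.81, 8.91 and 4.40 CPM, so the 3 groups did not overlap. Lars2 ranked 3304th to 3631st by count in IL-1b-treated, 397th to 434th in cultured and 1712th to 1855th in fresh libraries. Its 9 deposited transcripts shared 0 words of 25 bases with the 360 ribosomal RNA transcripts searched in the annotation. The ribosomal match by which the row was chosen was therefore not found among those sequences. The main RNA of the large ribosomal subunit and the ribosomal precursor were not found by name in the reference sequences used. The search therefore cannot tell whether Lars2 matches them.

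Malat1, the RNA of nuclear speckles, differed less between the groups. It had 26425, 21311 and 22851 counts in IL-1b-treated libraries, 36211, 39375 and 38066 in cultured libraries, and 51271, 35759 and 30353 in fresh libraries. The means were 1551 ± 32.6 CPM in IL-1b-treated, 2389 ± 41.8 CPM in cultured and 2127 ± 8.60 CPM in fresh cells (SD, n = 3 each). IL-1b-treated libraries were the lowest and did not overlap the others. Cultured libraries were above fresh ones on this scale, whereas in TPM they were at 462 to 481 against 487 to 491, the other way round. An overlapping gene on the opposite strand, Gm37376, had 53.3 to 107 counts in IL-1b-treated libraries, 104 in cultured replicate 2 and 0 in the other cultured and all fresh libraries.

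Neat1, the paraspeckle frame, was lowest in fresh cells. It had 11622, 10245 and 10569 counts in IL-1b-treated libraries, 11606, 12459 and 12102 in cultured libraries, and 11531, 7529 and 6538 in fresh libraries. The means were 714 ± 19.1 CPM in IL-1b-treated, 760 ± 9.43 CPM in cultured and 461 ± 14.8 CPM in fresh cells (SD, n = 3 each). Neither cultured group overlapped fresh cells, and the highest IL-1b-treated library, at 736 CPM, lay below the lowest cultured one, at 754 CPM. Of its 4 deposited transcripts, the long paraspeckle form has 20771 bases and the others 711 to 3004. RSEM's mean length of 3146 to 3344 bases allows the long form at most 12.1 to 13.1% of Neat1 transcripts, depending on the library. The reads of the long and the short forms were not separated here.

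The fitted values set the RNAs side by side. Between IL-1b-treated and cultured cells the log2 fold change was -2.92 ± 0.12 (SE) for 7SL, -1.97 ± 0.19 for Rn7sk, -3.45 ± 0.52 for Rmrp and -2.94 ± 0.36 for Rpph1. It was -2.10 ± 0.02 for CT010467.1, -2.58 ± 0.05 for Lars2, -0.62 ± 0.02 for Malat1 and -0.09 ± 0.03 for Neat1. All 8 values were below 0, and Malat1 and Neat1 were nearest to it. Of the 10 identifiers, 9 passed the filter on low counts. Over all 13043 genes that passed it, 15.6% were higher and 13.3% lower at an adjusted p under 0.05 (edgeR's quasi-likelihood test), 28.9% in all. No call is given for the 9 RNAs, which were chosen from these values.

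Between cultured and fresh cells the fold changes had the opposite sign. They were 2.71 ± 0.11 for 7SL, 2.04 ± 0.19 for Rn7sk, 2.90 ± 0.49 for Rmrp and 2.80 ± 0.35 for Rpph1. CT010467.1 and Lars2 were close to each other, at 1.65 ± 0.02 and 1.65 ± 0.04, and Malat1 and Neat1 were at 0.17 ± 0.02 and 0.72 ± 0.03. Of all genes, 29.4% were higher and 28.9% lower in this comparison, 58.2% in all. Both comparisons share the cultured libraries, so their opposite signs are not separate observations.

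Between IL-1b-treated and fresh cells the small RNAs were near 0 on the count scale, but lower in TPM, as given below. 7SL was at -0.22 ± 0.13, Rn7sk at 0.07 ± 0.21, Rmrp at -0.55 ± 0.59 and Rpph1 at -0.14 ± 0.40 (log2 fold change ± SE). CT010467.1 was at -0.46 ± 0.02, Lars2 at -0.92 ± 0.05, Malat1 at -0.46 ± 0.02 and Neat1 at 0.63 ± 0.03. Of all genes, 32.9% were higher and 32.6% lower here, 65.5% in all. For 7SL, Rn7sk and Rpph1 the sign on the count scale rests on single libraries. Without fresh replicate 1 the log2 ratio of mean CPM for 7SL was 0.020, and that for Rpph1 was 0.48. That for Rn7sk was -0.13 without IL-1b-treated replicate 2.

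Each fold change depends in part on the scale. TPM differs from the CPM above both in taking account of length and in leaving out the TMM scaling, and the shares of the 2 were not separated. It gave lower log2 ratios than the count scale for each of the 8 in each comparison. The log2 ratio of mean TPM between IL-1b-treated and cultured cells was -3.32 for 7SL, -2.43 for CT010467.1, -0.94 for Malat1 and -0.42 for Neat1. Between cultured and fresh cells Malat1 was at -0.065 on the TPM scale, against 0.17 on the CPM scale, the only one of the 8 to turn in sign there. Between IL-1b-treated and fresh cells TPM put 7SL at -0.98, Rn7sk at -0.67, Rmrp at -1.41, Rpph1 at -0.83 and Neat1 at 0.09. Over all tested genes the median shift on log2(TPM + 1) was -0.25, -0.19 and -0.45 in the 3 comparisons.

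**Figure D2:**
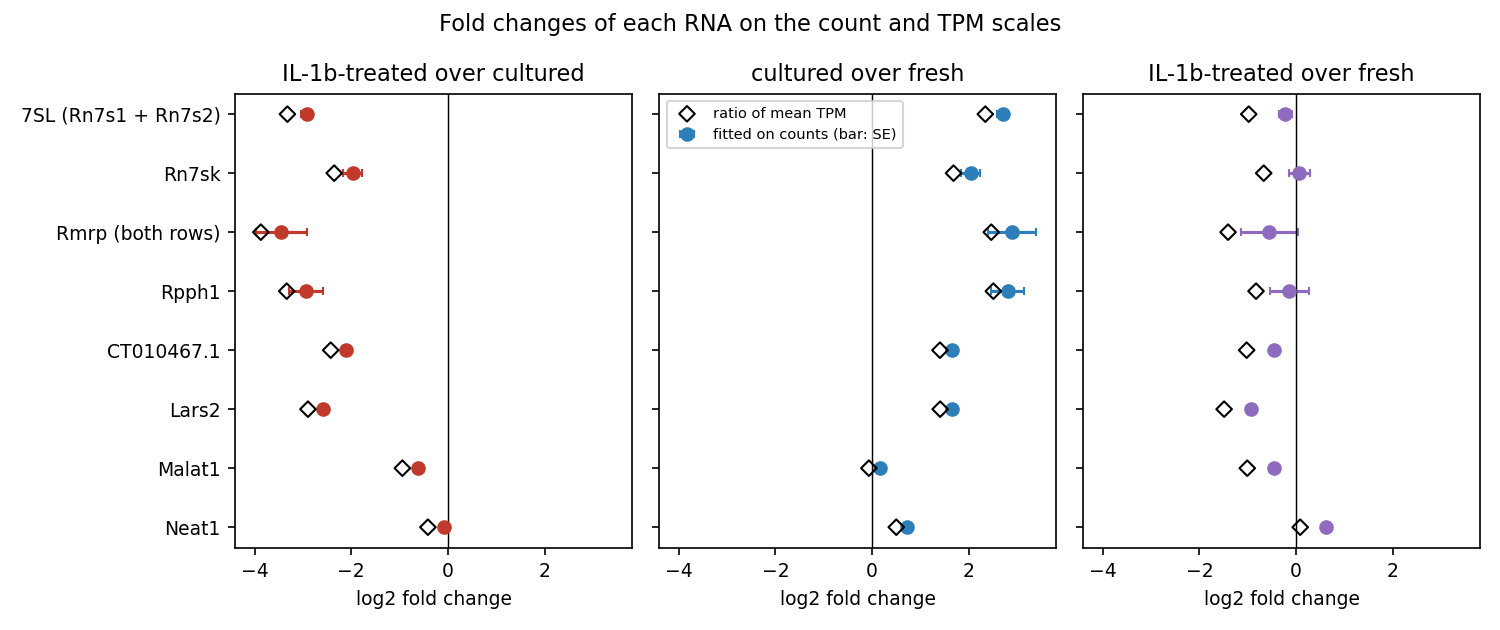
Log2 fold change of each RNA for IL-1b-treated over cultured, cultured over fresh and IL-1b-treated over fresh cells, fitted on counts (filled circles, bars are SE) and as the ratio of mean TPM (open diamonds). The diamonds lie left of the circles throughout, and only in the right panel do the small RNAs lie near 0 on the count scale.

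The small RNAs are short for this kind of library. The gap between length and effective length in the deposited tables was 214 to 217 bases in IL-1b-treated, 213 to 226 bases in cultured and 226 to 240 bases in fresh libraries, and the small RNAs are 271 to 331 bases long, which left effective lengths of 47.8 to 120 bases. Short genes as a class had a fold change of the other sign between the cultured groups: the 779 tested genes under 500 bases of effective length had a median log2 fold change of 0.39 between IL-1b-treated and cultured cells, against -0.18 for the 1025 genes of 5000 bases and over. Between cultured and fresh cells these medians were 0.38 and -0.14, beside 2.04 to 2.90 for the small RNAs. The 779 genes include the small RNAs, and genes as short as these were not examined apart. The part of length in these values was not tested.

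Levels between genes are compared per length, in TPM. In cultured cells CT010467.1 came first at 3589 ± 109 TPM, then 7SL at 1650 ± 173, Malat1 at 469 ± 10.4, Neat1 at 334 ± 5.46, Rn7sk at 247 ± 21.99, Lars2 at 144 ± 4.04, Rpph1 at 123 ± 31.6 and Rmrp at 96.3 ± 31.6 TPM. The range of Rpph1 held that of Lars2 and overlapped that of Rmrp, so these neighbours were not separable. In IL-1b-treated cells the order was CT010467.1 at 668 ± 5.71, Neat1 at 251 ± 6.31, Malat1 at 244 ± 5.25, 7SL at 165 ± 9.25, Rn7sk at 48.4 ± 16.95, Lars2 at 19.3 ± 0.755, Rpph1 at 12.2 ± 2.29 and Rmrp at 6.58 ± 3.65 TPM. Neat1 and Malat1 overlapped there. In fresh cells CT010467.1 was at 1355 ± 14.8 TPM, followed by Malat1 at 490 ± 2.20, 7SL at 325 ± 56.3, Neat1 at 236 ± 4.40, Rn7sk at 76.9 ± 13.99, Lars2 at 54.1 ± 2.11, Rpph1 at 21.6 ± 12.8 and Rmrp at 17.4 ± 10.54 TPM, where only Rpph1 and Rmrp overlapped. CT010467.1 was thus first and Rmrp last in each group, and 7SL moved to second place in cultured cells only. All 9 genes together took 0.315 to 0.317% of counts in IL-1b-treated, 0.809 to 0.826% in cultured and 0.434 to 0.436% in fresh libraries.

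Ratios within a library are free of scaling between libraries. The count ratio of CT010467.1 to Lars2 was 15.6, 17.2 and 15.7 in IL-1b-treated libraries, 11.9, 10.9 and 12.1 in cultured libraries, and 12.05, 11.4 and 11.6 in fresh libraries. These rows kept almost the same ratio in cultured and fresh cells, and a higher one in IL-1b-treated cells, without overlap. CT010467.1 to 7SL was 71.9, 72.8 and 79.6 in IL-1b-treated libraries, 46.6, 41.7 and 39.0 in cultured libraries, and 69.9, 108 and 101 in fresh libraries, lowest in cultured cells. Malat1 to Neat1 was 2.27, 2.08 and 2.16 in IL-1b-treated libraries, 3.12, 3.16 and 3.15 in cultured libraries, and 4.45, 4.75 and 4.64 in fresh libraries. The Malat1 to Neat1 ratio therefore differed between the groups, with no overlap. How many other genes, or pairs of genes, have groups without overlap was not counted. Such separation, here and above, is therefore not shown to be particular to these RNAs. 7SL to Rn7sk was 2.05 to 4.04 in IL-1b-treated libraries, 4.37 to 5.56 in cultured libraries and 2.24 to 3.75 in fresh libraries, with the cultured libraries above all others.

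**Figure D3:**
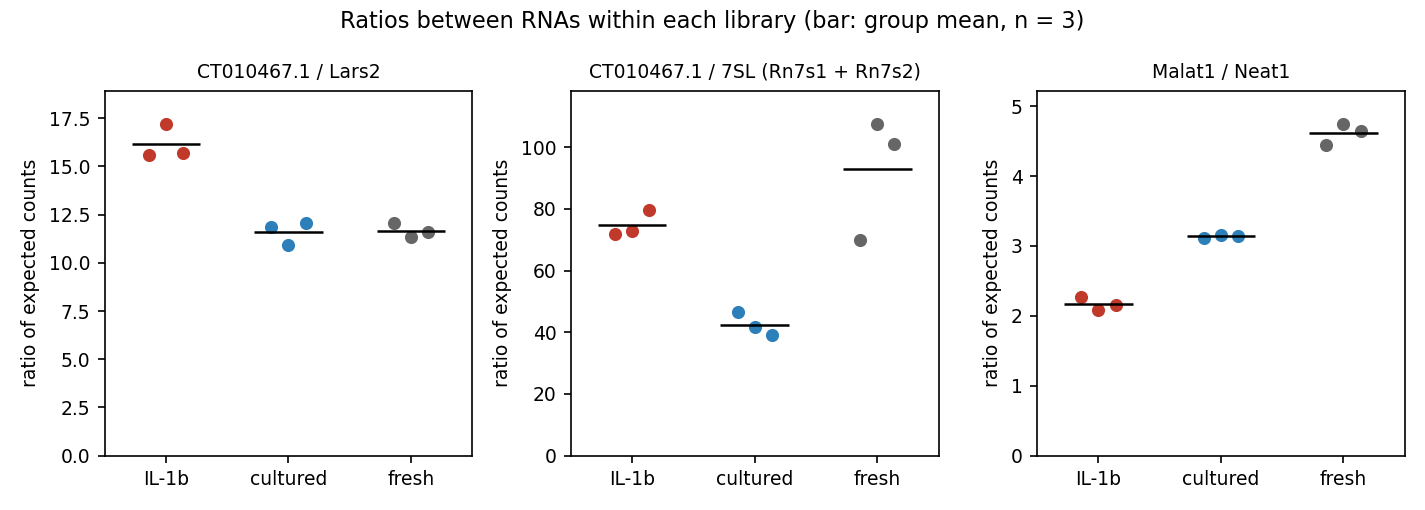
Ratio of expected counts of CT010467.1 to Lars2, of CT010467.1 to 7SL and of Malat1 to Neat1 within each library, with points for the 3 libraries of IL-1b-treated, cultured and fresh cells and a bar for the group mean (axes start at 0). The Malat1 to Neat1 ratio takes 3 separate levels, whereas CT010467.1 to Lars2 is higher in IL-1b-treated libraries and overlaps between cultured and fresh ones.

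By likeness of profile (root mean square difference of log2 CPM over the 9 libraries, each profile centred on its own mean, among 12332 or 12333 genes), the small RNAs and the ribosomal rows had each other among their nearest genes. The nearest gene to 7SL was Rpph1, at 0.31, followed by CT010467.1 at 0.48 and Lars2 at 0.49. CT010467.1 was nearest to Lars2 (0.23), then to Gm22009, a small Cajal body RNA outside the 9 genes (0.30), and Rn7sk (0.35). Rn7sk itself was nearest to CT010467.1, then to the unclassified transcripts 5330406M23Rik (0.44) and Gm49590 (0.44). The nuclear lncRNAs had other neighbours. Malat1 was nearest to Angel1 (0.09), Zbtb20 (0.09) and Ell (0.10), and genes near Neat1 included 0610012G03Rik (0.04) and Ttc14 (0.04), all annotated as protein-coding. These are descriptions over libraries that share 3 groups, and likeness at low counts is coarse. The 9 genes were also chosen from their values in these same libraries, so likeness among them is not a separate result.

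The values of the protein partners were not used to choose these RNAs, and the partners were tested in the same fit over all genes. The lists were, however, chosen with earlier results of these data known. Adjusted p-values below are from edgeR's quasi-likelihood test over 13043 genes. Of these, 15.6% were higher and 13.3% lower between IL-1b-treated and cultured cells, 29.4% and 28.9% between cultured and fresh cells, and 32.9% and 32.6% between IL-1b-treated and fresh cells. The median log2 fold change was -0.01, 0.00 and -0.01. On log2(TPM + 1) with limma the split over all genes was 289 higher and 4452 lower, 1877 and 4842, and 1527 and 7113. With library size alone as the scale it was 1191 and 3273, 3417 and 4185, and 3408 and 5281. The directions below are those with TMM scaling, and the counts on these other scales are given for each list, higher before lower and in the same order of comparisons.

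The first list holds the proteins of SRP and its receptor, the partners of 7SL. Of 10 tested, 5 rose and 0 fell in IL-1b-treated against cultured cells (median 0.17), 6 rose and 1 fell in cultured against fresh cells (median 0.33), and 7 rose and 2 fell in IL-1b-treated against fresh cells (median 0.53). On the scale of log2(TPM + 1) they were 2 and 4, 2 and 3, and 4 and 4, with medians of -0.04, 0.01 and 0.01, and with library size alone 3 and 1, 6 and 1, and 6 and 3. The 2 that fell in the last comparison were 1 without IL-1b-treated replicate 2 or without fresh replicate 1. Srp9, which with Srp14 binds the Alu end of 7SL, was at 159 ± 4.72 CPM in IL-1b-treated against 103 ± 5.22 CPM in cultured cells, a log2 fold change of 0.63 ± 0.05 (adjusted p = 1.50e-09), beside -2.92 for 7SL. Srp14 rose by 0.59 ± 0.06 (adjusted p = 1.55e-07). Both calls held in all 19 alternatives. In cultured against fresh cells Srp9 rose by 0.77 ± 0.05 (adjusted p = 1.08e-11) and Srp68, a large SRP protein, fell by 0.25 ± 0.06 (adjusted p = 0.000561).

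The proteins of the 7SK particle and of P-TEFb had mixed calls. Of 10 tested, 1 rose and 3 fell in IL-1b-treated against cultured cells (median -0.03), 2 rose and 5 fell in cultured against fresh cells (-0.18), and 2 rose and 6 fell in IL-1b-treated against fresh cells (-0.28). In log2(TPM + 1), 0 rose and 8 fell in each comparison, and with library size alone the counts were 1 and 7, 0 and 6, and 1 and 7. The 2 that rose in cultured against fresh cells were 0 without fresh replicate 1 and 1 without cultured replicate 2, cultured replicate 3 or fresh replicate 3, and the 2 in IL-1b-treated against fresh cells were 1 without fresh replicate 1. Larp7, which binds the U-rich end of 7SK, was at 68.2 ± 1.94 CPM in IL-1b-treated against 54.4 ± 2.23 CPM in cultured cells (log2 fold change 0.33 ± 0.06, adjusted p = 0.000343), but turned in sign on the TPM scale. Aff1, a scaffold of the super elongation complex, fell by 0.31 ± 0.05 (adjusted p = 6.53e-05). It also fell in cultured against fresh cells, by 0.62 ± 0.05 (adjusted p = 1.54e-10), where Rn7sk was higher. Hexim1, which joins 7SK to P-TEFb, was at 0.07 ± 0.06 between the cultured groups (adjusted p = 0.42) and Cdk9, the kinase itself, at -0.05 ± 0.06 (adjusted p = 0.62).

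Rpph1 and Rmrp work with proteins that RNases P and MRP largely share. Of 10 tested, 3 rose and 0 fell in IL-1b-treated against cultured cells (median 0.26), 4 rose and 0 fell in cultured against fresh cells (0.18), and 8 rose and 1 fell in IL-1b-treated against fresh cells (0.55). Scaled as log2(TPM + 1), they were 1 and 1, 1 and 1, and 2 and 2, and with library size alone 2 and 0, 3 and 0, and 5 and 1. The count of 4 was 2 without cultured replicate 2 and also without fresh replicate 2, and the 1 that fell was 0 without IL-1b-treated replicate 2 or fresh replicate 2. Pop7 was at 13.6 ± 0.322 CPM in IL-1b-treated against 8.50 ± 1.17 CPM in cultured cells (log2 fold change 0.68 ± 0.14, adjusted p = 0.000790). Pop5 rose by 0.28 ± 0.07 on the count scale (adjusted p = 0.00425), with the other sign in TPM, and by 0.62 ± 0.07 in cultured against fresh cells (adjusted p = 1.38e-07).

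RNA polymerase III, which makes all 4 small RNAs, and its factors had calls both ways. Of 33 tested, 7 rose and 6 fell in IL-1b-treated against cultured cells (median -0.05), 13 rose and 10 fell in cultured against fresh cells (0.06), and 14 rose and 12 fell in IL-1b-treated against fresh cells (0.02). With log2(TPM + 1) they were 1 and 14, 6 and 16, and 6 and 20, and with library size alone 6 and 12, 13 and 12, and 12 and 16. Ssb, the La protein that binds the U-rich ends of new polymerase III RNAs, was at 295 ± 16.8 CPM in IL-1b-treated against 214 ± 11.2 CPM in cultured cells (log2 fold change 0.47 ± 0.04, adjusted p = 4.27e-08). Pou2f1, a transcription factor that binds the 7SK promoter, fell by 0.27 ± 0.04 in IL-1b-treated against cultured cells (adjusted p = 3.85e-05) and rose by 0.53 ± 0.04 in cultured against fresh cells (adjusted p = 3.14e-10). Gtf3c1, a subunit of TFIIIC, fell in both, by 0.29 ± 0.05 (adjusted p = 0.000339) and by 0.56 ± 0.05 (adjusted p = 4.32e-09). Maf1, the repressor of polymerase III, was at -0.05 ± 0.05 between the cultured groups (adjusted p = 0.54).

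Lars2 is 1 of the aminoacyl-tRNA synthetases, most of them mitochondrial in this list, which includes cytosolic Lars. Of 19 others tested, 3 rose and 2 fell in IL-1b-treated against cultured cells (median -0.06), 5 rose and 5 fell in cultured against fresh cells (-0.08), and 6 rose and 7 fell in IL-1b-treated against fresh cells (-0.01). As log2(TPM + 1) the counts were 0 and 6, 2 and 8, and 0 and 11, and with library size alone 1 and 6, 5 and 6, and 5 and 7. Without cultured replicate 3 the first comparison had 2 higher and 0 lower. Leaving out IL-1b-treated replicate 2 gave 1 lower. The log2 fold changes between the cultured groups ran no lower than the -0.26 ± 0.07 of Cars2 (adjusted p = 0.00755, above 0.05 without cultured replicate 3), against -2.58 for Lars2. Iars2, the mitochondrial isoleucyl enzyme, rose by 0.61 ± 0.05 in cultured against fresh cells (adjusted p = 1.99e-09) and Vars2, the valyl enzyme, fell by 0.91 ± 0.09 (adjusted p = 8.23e-09).

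Genes of the nuclear RNA exosome, of its cofactors and of tailing and trimming enzymes act on RNAs of this kind. Of 24 tested, 10 rose and 0 fell in IL-1b-treated against cultured cells (median 0.14), 12 rose and 7 fell in cultured against fresh cells (0.17), and 13 rose and 6 fell in IL-1b-treated against fresh cells (0.33). With library size alone the counts were 10 and 7, 12 and 7, and 12 and 11, and for log2(TPM + 1) they were 1 and 8, 4 and 6, and 5 and 12, so the direction of the group depends on the scale. The 7 that fell in cultured against fresh cells were 4 without cultured replicate 3, and in the first comparison 1 fell without IL-1b-treated replicate 2 or cultured replicate 3. Toe1, a nuclease that trims small nuclear RNAs, was at 52.3 ± 2.10 CPM in IL-1b-treated against 35.6 ± 1.57 CPM in cultured cells (log2 fold change 0.56 ± 0.08, adjusted p = 5.64e-06) and rose under all 19 alternatives. Mtrex, the exosome helicase, rose by 0.34 ± 0.05 (adjusted p = 7.02e-06) but had the other sign in TPM. Rbm7, which brings the exosome to polymerase II and III RNAs and also binds 7SK, rose by 0.72 ± 0.05 in cultured against fresh cells (adjusted p = 9.70e-11).

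Of 22 nuclear speckle proteins, the surroundings of Malat1, 7 rose and 7 fell in IL-1b-treated against cultured cells (median -0.01), 11 rose and 8 fell in cultured against fresh cells (0.06), and 11 rose and 9 fell in IL-1b-treated against fresh cells (0.09). By log2(TPM + 1) they were 0 and 15, 6 and 13, and 3 and 16, and with library size alone 6 and 13, 8 and 8, and 10 and 11. Srrm2, a core speckle protein, was at 1339 ± 17.6 CPM in IL-1b-treated against 1716 ± 9.55 CPM in cultured cells (log2 fold change -0.36 ± 0.02, adjusted p = 7.67e-11), beside -0.62 for Malat1. Srsf5, a splicing factor, rose by 0.29 ± 0.03 (adjusted p = 1.14e-08) and by 0.99 ± 0.03 in cultured against fresh cells (adjusted p = 5.77e-19).

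Of 25 paraspeckle proteins, 6 rose and 8 fell in IL-1b-treated against cultured cells (median -0.05), 10 rose and 14 fell in cultured against fresh cells (-0.18), and 8 rose and 14 fell in IL-1b-treated against fresh cells (-0.24). In TPM on that log scale they were 0 and 17, 4 and 16, and 3 and 20, and with library size alone 4 and 13, 8 and 14, and 8 and 15. The 8 that fell in the first comparison were 5 without IL-1b-treated replicate 3, cultured replicate 1 or cultured replicate 2. Sfpq, which Neat1 needs to form paraspeckles, was at 211 ± 2.81 CPM in IL-1b-treated, 243 ± 5.84 CPM in cultured and 463 ± 5.98 CPM in fresh cells. It fell by 0.93 ± 0.03 in cultured against fresh cells (adjusted p = 6.80e-17), where Neat1 was higher by 0.72. Tardbp, which favours the short Neat1 form, rose there by 0.79 ± 0.03 (adjusted p = 1.53e-16), and in IL-1b-treated against fresh cells by 0.94 ± 0.03 (adjusted p = 3.73e-18).

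Other long noncoding RNAs, many of them nuclear, form the next list. Of 32 listed, 22 passed the filter; 8 rose and 1 fell in IL-1b-treated against cultured cells (median 0.07), 10 rose and 8 fell in cultured against fresh cells (0.30), and 11 rose and 9 fell in IL-1b-treated against fresh cells (0.38). The TPM scale gave 1 and 8, 9 and 8, and 6 and 10, and library size alone 5 and 5, 10 and 9, and 11 and 9. Of the 8 that rose in the first comparison, the count was 3 without cultured replicate 1 and 5 with IL-1b-treated replicate 1 left out, and 2 fell without IL-1b-treated replicate 2. Kcnq1ot1, an imprinting RNA kept in the nucleus, was the one that fell, at 47.0 ± 4.54 CPM in IL-1b-treated against 75.7 ± 4.01 CPM in cultured cells (log2 fold change -0.68 ± 0.08, adjusted p = 6.18e-07). It rose by 1.35 ± 0.08 in cultured against fresh cells (adjusted p = 1.75e-12). Gas5, the host of several small nucleolar RNAs, rose in the first comparison by 0.52 ± 0.04 (adjusted p = 2.04e-09), and Mir17hg, the miR-17 cluster host, rose in cultured against fresh cells by 3.34 ± 0.08 (adjusted p = 1.55e-19).

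Few other rows annotated as RNA types that mostly lack tails gave counts. Of 6106 further rows annotated as small or ribosomal RNA types, 87 had any count and 6 passed the filter, of which 2 rose and 1 fell in each comparison, with medians of -0.33, 1.00 and 0.60. In log2(TPM + 1) the counts were 1 and 2, 2 and 2, and 1 and 2, and with library size alone 2 and 2, 2 and 1, and 2 and 1. The first median was 0.13 without IL-1b-treated replicate 3, 0.06 without cultured replicate 3 and -0.07 with IL-1b-treated replicate 1 left out, and the last was -0.46 without IL-1b-treated replicate 2. These small counts depended on single libraries, moving to 3 lower without IL-1b-treated replicate 2 in IL-1b-treated against cultured cells, to 1 higher without cultured replicate 1 or fresh replicate 1 in cultured against fresh cells, and to 2 lower without IL-1b-treated replicate 1 in IL-1b-treated against fresh cells. The mitochondrial ribosomal RNAs mt-Rnr1 and mt-Rnr2, which carry short A tails, were the 2 that rose in IL-1b-treated against cultured cells. They were also the 2 that rose in IL-1b-treated against fresh cells. On the CPM scale they had another order of groups. The means of mt-Rnr2 were 985 ± 40.2 CPM in IL-1b-treated, 684 ± 34.1 CPM in cultured and 796 ± 27.0 CPM in fresh cells. It rose by 0.53 ± 0.04 in IL-1b-treated against cultured cells (adjusted p = 1.32e-10) and fell by 0.22 ± 0.04 in cultured against fresh cells (adjusted p = 1.54e-05). In IL-1b-treated against fresh cells its log2 fold change was 0.31 ± 0.04, with the other sign in TPM. mt-Rnr1 rose by 0.33 ± 0.04 and by 0.57 ± 0.05 in these comparisons (adjusted p = 6.94e-06 and 2.65e-10), the first with the other sign in TPM. Gm22009, annotated as a small Cajal body RNA, had 3, 0 and 0 counts in IL-1b-treated, 26, 19 and 21 in cultured and 0, 7 and 5 in fresh libraries. Its summed counts were 21.03 times higher in cultured than in IL-1b-treated cells on the TMM scale (exact 95% binomial interval 6.89 to 105, counting error only; edgeR adjusted p = 0.00212). In cultured against fresh cells its edgeR adjusted p was 0.00992, and it was above 0.05 without cultured replicate 1 or without fresh replicate 1. With at most 7 counts in any other library, Gm22009 passed the filter on low counts through the cultured libraries, where it was high. Its interval and adjusted p-values are therefore a description and not separate support for that height. Scarna2, also of Cajal bodies, had 25, 31 and 21 counts in IL-1b-treated, 44, 47 and 42 in cultured and 92, 60 and 46 in fresh libraries, and fell in IL-1b-treated against fresh cells (log2 fold change -1.05 ± 0.31, adjusted p = 0.00483). Its value in IL-1b-treated against cultured cells was -0.71 ± 0.31 (adjusted p = 0.0979), and whether these differ was not tested.

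Replication-dependent histone messengers mostly end in a stem-loop in place of a tail. They were listed by gene symbol, and whether the transcripts counted here had tails was not examined. Of 70 listed, 20 passed the filter; 4 rose and 0 fell in IL-1b-treated against cultured cells, 0 rose and 14 fell in cultured against fresh cells, and 3 rose and 13 fell in IL-1b-treated against fresh cells, with medians of 0.13, -1.57 and -1.28. On log2(TPM + 1) the counts were 1 and 0, 0 and 15, and 1 and 15, and with library size alone 3 and 0, 0 and 14, and 2 and 14. The median in cultured against fresh cells was -2.55 without cultured replicate 2, -2.47 without cultured replicate 3 and -2.38 with IL-1b-treated replicate 2 left out, and in IL-1b-treated against fresh cells it was -1.95 without cultured replicate 2. The median of 0.13 was 0.00 without IL-1b-treated replicate 1, IL-1b-treated replicate 3 or cultured replicate 1, 0.01 without fresh replicate 3, and 0.07 and 0.08 without fresh replicates 1 and 2. Leaving out a library also changed which histone genes passed the filter. Hist1h4n, at 178, 28.2 and 65 counts in fresh libraries and 0 in all others, passed it only through the fresh group. A row of this kind can only fall against fresh cells, so the counts of lower genes and the medians depend in part on the filter. How many other rows were of this kind was not counted. Hist1h1c, a linker histone, was at 7.47 ± 1.15 CPM in cultured against 17.5 ± 0.329 CPM in fresh cells (a log2 fold change of -1.23 ± 0.14, adjusted p = 1.16e-07). The 4 that rose were 2 without cultured replicate 1 or cultured replicate 3. Up to 1 fell in that comparison, and up to 2 rose in cultured against fresh cells, when single libraries were left out.

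**Figure D4:**
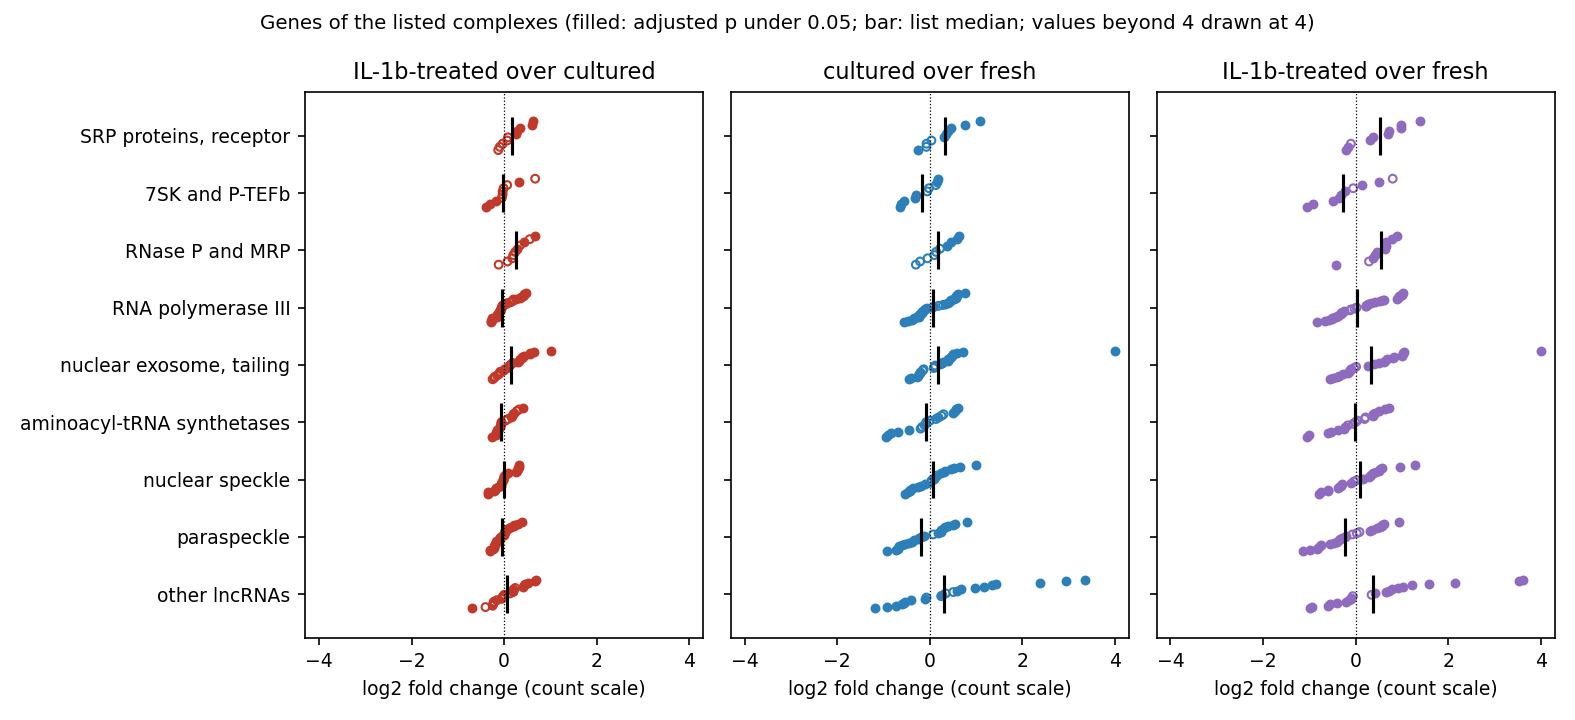
Log2 fold changes (count scale) of the tested genes of each list in the 3 comparisons, filled where the adjusted p is under 0.05, with a bar at the list median; values beyond 4 are drawn at 4. The medians of the 9 lists drawn lie between -0.06 and 0.26 for IL-1b-treated over cultured cells, where the small RNAs are at -1.97 to -3.45.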

How the data were processed

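Polyadenylated RNA of naive CD4+ T cells was measured in 9 libraries, 3 per group, made with a directional kit per the labels' protocols. The authors aligned reads with STAR and quantified them with RSEM on mm10, per the submitters' processing notes; neither versions nor the strand setting is given in the sources used here. The deposited tables hold, per the file headers, RSEM expected counts, which share ambiguous reads between rows and are not normalised. The TPM values deposited by the authors are transcript shares that take account of effective length. FPKM values were also deposited by the authors and were not used. Gene lengths and effective lengths in bases are those the authors deposited.

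Of 55487 identifiers, 55227 matched a symbol of GENCODE M21 (GRCm38). Expected counts were rounded and tested with edgeR 4.0.16 (R 4.3.3): filterByExpr, TMM scaling, group as the only term, all 9 libraries in 1 fit, the two-sided quasi-likelihood F test and Benjamini-Hochberg adjustment over 13043 genes, with a threshold of 0.05. The common biological coefficient of variation was 0.0665. CPM are expected counts per 1000000 of the TMM-scaled library total. Alternatives were RLE, upper quartile and library size scaling, no filter, DESeq2 1.42.0, limma 3.58.1 on log2(TPM + 1) and log2(TPM + 0.1), a replicate block, only the 2 groups compared, and leaving out each library. Summing the 7SL rows and the Rmrp rows was chosen after seeing the data. The fit was tested on simulated counts.

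The members and lists were chosen with earlier results of these data known. Besides the 9 members, the rule for named genes took from each list and comparison the 2 called genes each way with the smallest adjusted p and at least 1 TPM in 1 group, partners named by their role, and the 3 genes nearest in profile to each member with at least 1 CPM in 1 group (log2 CPM with a prior of 0.5). Only some of these are named here, and some items are not reported here. Replicates of a group differed by 2.97 to 5.76 chi-square units per gene, so no 2 libraries were treated as 1. Sequences and coordinates are of GENCODE M21; searches for shared words used both strands and words of 25 or 50 bases.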

Additional observations from a re-analysis of the deposited data

How the results depend on the processing

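The counts of genes called stayed within 1.5 times the reported count under every alternative run. Leaving out 1 library gave 3024 to 3698 calls for IL-1b-treated against cultured, 7035 to 7835 for cultured against fresh and 8109 to 8539 for IL-1b-treated against fresh cells. With library size alone the median log2 fold change over all genes was -0.12, -0.05 and -0.18.

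For IL-1b-treated against cultured cells the signs of the 8 RNAs held under the settings run for their levels, which were RLE, upper quartile and library size scaling, TPM and leaving out each library. The log2 ratio of Malat1 in cultured against fresh cells was -0.065 in TPM. In IL-1b-treated against fresh cells, 7SL ran between -0.304 and 0.020 when 1 library was left out, the highest without fresh replicate 1. Rn7sk was at -0.086 with library size alone, -0.67 in TPM, and -0.01, -0.13 and -0.07 without IL-1b-treated replicate 1, IL-1b-treated replicate 2 and fresh replicate 3, with 0.345 the highest. Rpph1 was at 0.03 without IL-1b-treated replicate 1 and 0.48 without fresh replicate 1, with -0.474 the lowest. The cause was not tested.

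Same-numbered libraries were not treated as pairs in the main fit, since the labels do not say whether they share an animal. Their deviations correlated at -0.02 to 0.02, which cannot tell whether they do. With the replicate number as a block, 3652, 7485 and 8454 genes were called in the 3 comparisons. Depth limits Rmrp and Rpph1 most, at 2 to 51 counts outside cultured cells.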
